A study of Mus musculus with 7 samples.

Results

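Collagens, laminins, fibronectin and their integrin receptors were followed in GFP-positive cells of the developing cortex of C57BL/6 mice after knockdown of Trnp1, a nuclear protein of cortical progenitors. The members were taken by gene symbol: the collagen alpha chains, laminin chains and integrin alpha and beta subunits with a probe set of their own, and fibronectin (Fn1), the nidogens Nid1 and Nid2 and perlecan (Hspg2). This gave 84 of the 19938 genes measured. They comprised 44 collagen chains, 10 laminin chains, 18 integrin alpha subunits, 8 integrin beta subunits and the 4 linker and adhesion proteins. Cortices were electroporated on embryonic day 13 with plasmids that also carried green fluorescent protein. After 24 h, at embryonic day 14, cells with the fluorescent protein were sorted and profiled. The knockdown group had 3 samples, in which the construct lowered Trnp1, and the control group had 4 samples with the genotype WT. The control construct, the sex of the embryos and the number of embryos in a sample are not given in the sources used here. Each sample was hybridised to 1 Affymetrix array, and values are log2 signals from the authors' RMA normalization, so that 1 unit is a doubling of the signal. Each gene was read from 1 probe set. The signal of a probe set depends on its probes, so levels are compared between arrays and not between genes.

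The basement membrane is a thin sheet of extracellular matrix. Laminin trimers and type IV collagen each form a network in it, and nidogens and perlecan link the networks. Cells hold on to it through integrins, heterodimers of an alpha and a beta subunit that bind laminins, collagens or fibronectin outside the cell and connect to actin inside it. In the embryonic cortex 1 such sheet lies under the pia, where the endfeet of radial glia attach, and another surrounds the growing blood vessels. Radial glia are known to carry laminin-binding integrins. Endothelial and mural cells are known producers of type IV collagen, laminin alpha 4 and nidogens, and microglia of the leukocyte integrins.

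Trnp1 itself (Entrez 69539) had log2 signals of 4.80, 4.85 and 4.55 in the knockdown arrays, against 5.07, 4.999, 5.24 and 5.22 in the control arrays. The groups did not overlap, and the direction was that of the labels. The difference was -0.40 (SE 0.12), with p = 0.0286 by exact permutation (two-sided, 35 splits), which no split can go below. By limma the adjusted p over all genes was 0.825. The plasmids reach cells at the ventricular surface, and the sort kept fluorescent cells, yet markers of other cell types were present and varied between arrays. The mean log2 signal of 12 endothelial markers was 7.24, 6.15 and 5.13 in the knockdown arrays, against 4.66, 4.82, 4.46 and 6.79 in the control arrays. The mean of 9 mural cell markers was 6.07, 5.32 and 4.75 in knockdown, against 4.46, 4.39, 4.42 and 5.30 in control. The mean of 10 microglia and macrophage markers was 6.65, 7.70 and 6.29 in knockdown, against 6.85, 5.49, 5.73 and 8.13 in control. Control replicate 4 was thus the highest control array for all of these lists. All 12 endothelial, 7 of 9 mural and all 10 microglial markers had higher means in knockdown. Of these the mural marker Ndufa4l2 alone had an unadjusted p under 0.05, beside 2.2% of all genes that were higher at that p. Summed on the linear scale, the endothelial markers gave 464 to 2237 in knockdown and 295 to 1672 in control, the mural markers 267 to 951 and 205 to 460, and the microglial markers 1331 to 3079 and 628 to 5588. RMA values have no zero, so absence cannot be read from them. Cdh5, which encodes the endothelial cadherin, had 8.54, 7.53 and 5.89 in knockdown, against 5.06, 5.27, 3.83 and 8.37 in control. Its difference was the largest of the endothelial list, where differences ran from 0.52 to 1.69. The endothelial markers of smallest p, Tek and Flt1, differed by 0.86 (SE 0.43) and 1.43 (SE 0.73). Markers of the labelled cortical cells were present on every array, with means of 8.10 to 8.48 in knockdown and 8.0 to 8.71 in control for 10 radial glia markers. For 9 neuronal markers the means were 8.83 to 9.42 and 9.11 to 9.39. Of the 9, 4 were lower in knockdown at an unadjusted p under 0.05, beside 3.61% of all genes. Knockdown replicate 1 was the highest of all arrays for the vascular lists, and control replicate 4 for the microglial list. In a bulk sample fewer cells of a type and less RNA per cell cannot be told apart.

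No collagen, laminin or integrin gene passed the test between knockdown and control. By limma with Benjamini-Hochberg adjustment over all genes, 0 of 84 members had an adjusted p under 0.05, where 0% of all genes did, and the smallest adjusted p of a member was 0.825. At an unadjusted p under 0.05, 2 of 84 members (2.38%) were higher in knockdown, namely Fn1 and the integrin subunit Itga2, beside 2.2% of all genes. None of the 84 was lower at that p, beside 3.61% of all genes. In none of the members did all knockdown arrays lie above all control arrays, which was the case for 2.59% of all genes, and in none did they all lie below, beside 3.07%. Of the members 57 (67.9%) had a higher mean in knockdown and 27 a lower one, and 49.8% of all genes had a higher mean. Their median log2 difference was 0.071, beside -0.001 over all genes. With the array medians set equal only 36 of the 84 were higher, with a median of -0.035 beside -0.107 over all genes. After a further quantile normalization 40 were higher, with a median of -0.0074 beside -0.036 over all genes. After cyclic loess normalization 50 were higher, with a median of 0.027 beside -0.0074 over all genes. The median of the members thus lay above that of all genes under each scaling. Most differences were small: 64 members (76.2%) differed by less than 0.2 log2 units, beside 63.1% of all genes. Those that differed by more than 1 unit were Nid1, Lama4, Fn1 and Nid2, 4.76% of the members beside 0.813% of all genes. The 95% interval stayed within 1 log2 unit on either side of 0 for 67 members and reached beyond it for the other 17, for which a doubling or a halving lies inside the interval.

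**Figure D1:**
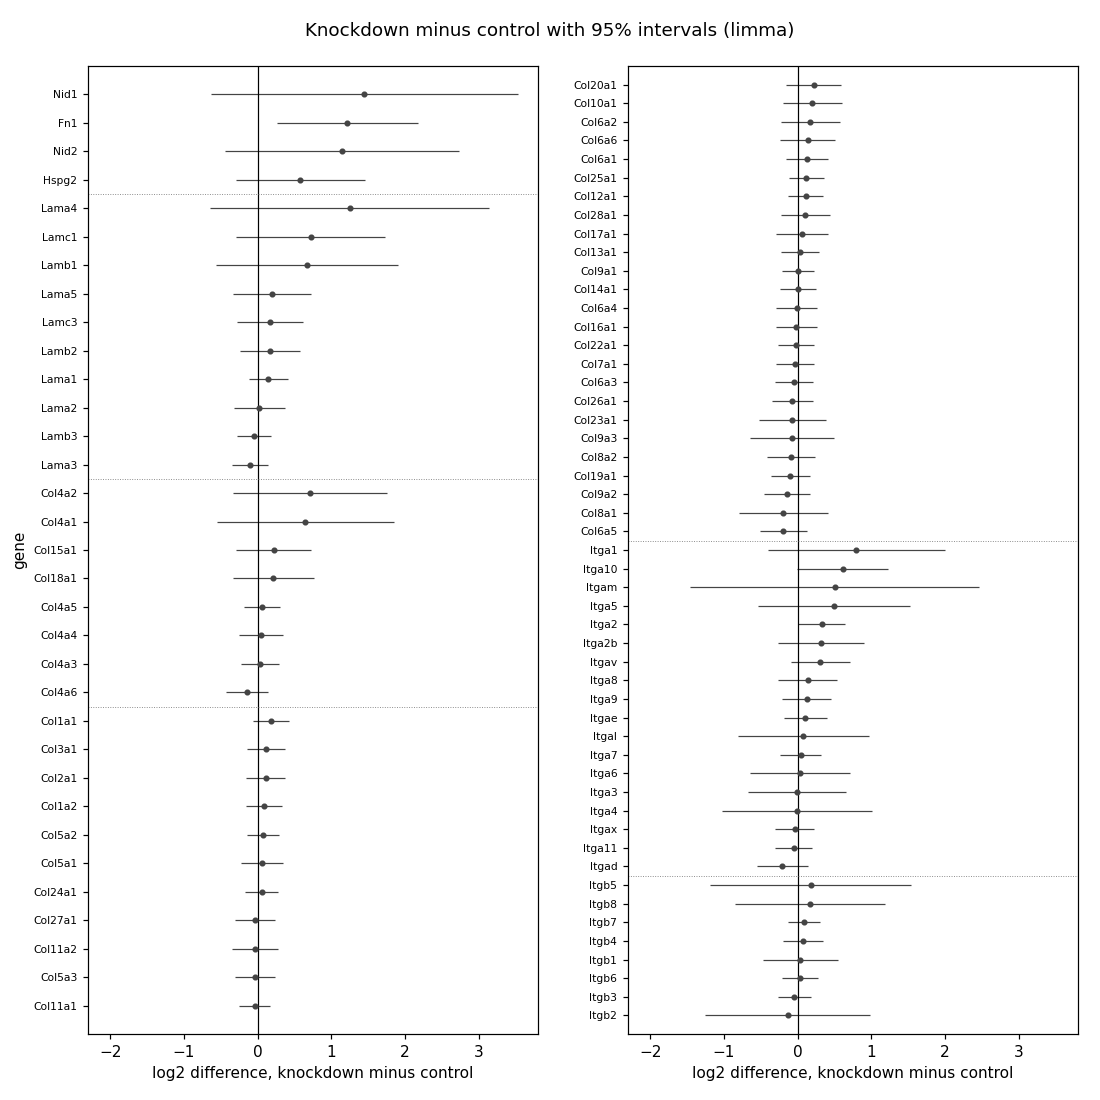
Log2 difference between knockdown and control (horizontal axis) for each of the 84 genes (vertical axis), ordered by role and separated by dotted lines. Points are limma estimates from 3 knockdown and 4 control arrays, and bars are 95% intervals. The widest bars belong to Nid1, Itgam, Lama4, Nid2 and Itgb5, and the fibrillar collagens have narrow bars around 0.

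Fibronectin and the linker proteins of the basement membrane had the largest differences of the role groups, and all 4 had higher means in knockdown. Fn1 (Entrez 14268), a glycoprotein that cells bind through RGD-recognising integrins, had log2 signals of 9.66, 8.94 and 8.77 in the knockdown arrays, against 8.05, 7.57, 7.17 and 8.85 in the control arrays. Only control replicate 4 reached into the knockdown range, above knockdown replicate 3. Its mean was 9.12 ± 0.47 (SD, n = 3) in knockdown and 7.91 ± 0.72 (SD, n = 4) in control, a difference of 1.22 (SE 0.41, 95% interval 0.26 to 2.17) or 2.32-fold. The unadjusted limma p was 0.0198 and the adjusted p 0.825. Fn1 differed by 1.53 once control replicate 4 was left out. That array was the only control above any knockdown array, so its removal had to separate the groups. In that setting 11.1% of all genes had no overlap. The Fn1 difference fell to 0.95 when knockdown replicate 1 was dropped instead, and stood at 1.26 with both arrays dropped.

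Nid1 (Entrez 18073), which bridges laminin and type IV collagen, had log2 signals of 7.94, 6.44 and 4.85 in the knockdown arrays, against 4.29, 4.27, 4.38 and 6.92 in the control arrays. The first 3 control arrays lay close together and control replicate 4 far above them, while the knockdown arrays spread over 3.09 units. The difference of 1.45 (SE 0.89, 95% interval -0.64 to 3.53) was smaller than the range within either group. Leaving out control replicate 4 gave 2.10 and leaving out knockdown replicate 1 gave 0.68. Nid2 (Entrez 18074), the second nidogen, showed the same order of arrays at the top, with 7.79, 6.17 and 5.36 in knockdown, against 5.08, 4.998, 4.47 and 6.64 in control. Its difference was 1.15 (SE 0.68), with 1.59 without control replicate 4 and 0.47 without knockdown replicate 1. Hspg2 (Entrez 15530), which encodes the heparan sulfate proteoglycan perlecan, had 7.46, 6.36 and 6.31 in knockdown, against 6.41, 5.84, 5.58 and 6.71 in control. The difference was 0.58 (SE 0.37), and 0.20 without knockdown replicate 1. For all 4 genes knockdown replicate 1 was the highest of the 7 arrays and control replicate 4 the highest control. The vascular marker lists had this order too, and their part in these differences was not tested.

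**Figure D2:**
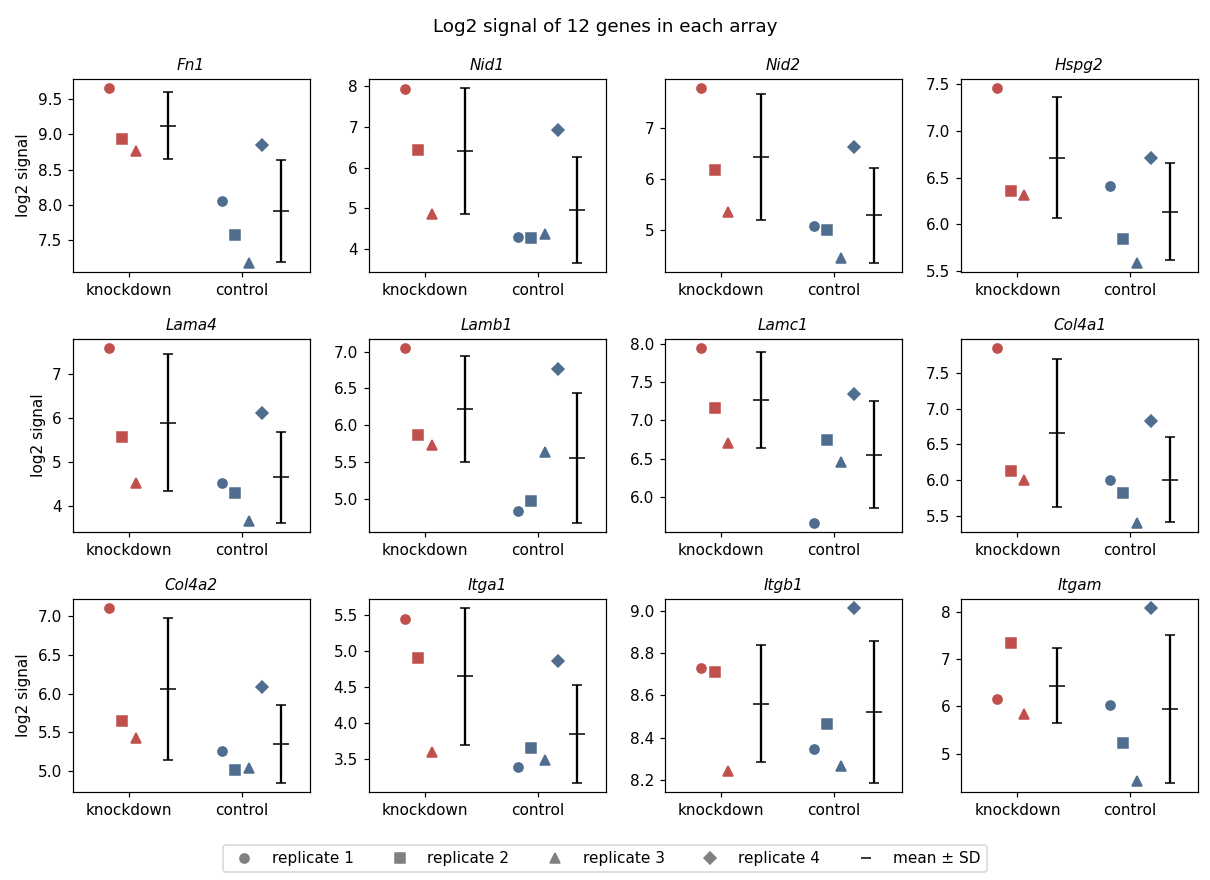
Log2 signal (vertical axes, scaled to each gene) of 12 genes in the 3 knockdown arrays (red, left) and the 4 control arrays (blue, right), with the replicate number as the symbol and the group mean ± SD as a bar. Knockdown replicate 1 and control replicate 4 sit on top of their groups for the matrix genes from Fn1 to Col4a2, whereas Itgam was highest in control replicate 4 and knockdown replicate 2.

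Laminins are trimers of an alpha, a beta and a gamma chain, and 10 chains were measured, of which 8 had higher means in knockdown and 2 lower, with 0 at an unadjusted p under 0.05. Their median difference was 0.17. Lama4 (Entrez 16775), the alpha chain typical of vessel walls, varied most, with log2 signals of 7.59, 5.57 and 4.51 in knockdown, against 4.51, 4.30, 3.67 and 6.11 in control. Knockdown replicate 3 equalled control replicate 1, and the difference of 1.24 (SE 0.81) did not exceed the SD of 1.56 among the knockdown arrays. It was 0.40 without knockdown replicate 1 and 1.73 without control replicate 4. Lamb1 (Entrez 16777), a widely used beta chain, had 7.05, 5.87 and 5.73 in knockdown, against 4.83, 4.97, 5.63 and 6.77 in control. Control replicate 4 was the only control above any knockdown array. The difference of 0.67 (SE 0.53) became 1.07 without control replicate 4 and 0.25 without knockdown replicate 1. Lamc1 (Entrez 226519), the gamma chain of most laminins, had 7.94, 7.16 and 6.71 in knockdown, against 5.66, 6.74, 6.46 and 7.34 in control, a difference of 0.72 (SE 0.43). It was 0.38 without knockdown replicate 1 and 0.42 without control replicate 1, the lowest array for this gene. Lamb2, another beta chain, differed by 0.16 (SE 0.17) and Lama5 by 0.20 (SE 0.23), with knockdown replicates 1 and 2 on opposite sides of the controls for Lama5 (5.81 and 4.80, against 5.04 to 5.27). Without knockdown replicate 2 the difference of Lama5 was 0.46 (limma unadjusted p = 0.0293, adjusted p = 0.35). The groups then did not overlap, as for 20.8% of all genes. That array was the only knockdown array below any control, so leaving it out had to separate the groups. The remaining chains Lama1, Lama2, Lama3, Lamb3 and Lamc3 differed by -0.11 to 0.17, and their arrays spanned at most 0.79 log2 units. Lama1 and Lama2, of the pial and other basement membranes, differed by 0.15 (SE 0.11) and 0.02 (SE 0.15).

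Among the basement membrane collagens, Col4a1 and Col4a2, which together form the most common type IV collagen trimer, had the largest differences. Col4a1 (Entrez 12826) had log2 signals of 7.85, 6.12 and 6.00 in knockdown, against 6.00, 5.82, 5.40 and 6.82 in control. Col4a2 (Entrez 12827) had 7.10, 5.65 and 5.43 in knockdown, against 5.26, 5.01, 5.04 and 6.08 in control. In both, knockdown replicate 1 stood above all other arrays, and control replicate 4 lay above the remaining knockdown arrays. The differences were 0.65 (SE 0.51) for Col4a1 and 0.71 (SE 0.45) for Col4a2, and without knockdown replicate 1 they were 0.051 and 0.19. Without control replicate 4 they were 0.92 and 0.96. Col15a1 and Col18a1, multiplexin collagens of basement membranes whose C-terminal fragments include endostatin, had the same arrays on top and differed by 0.22 (SE 0.22) and 0.21 (SE 0.24). Col4a3, Col4a4, Col4a5 and Col4a6, chains of more restricted basement membranes, differed by -0.14 to 0.065 and spanned at most 0.48 log2 units.

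Partner genes, mostly subunits of 1 trimer or heterodimer and in 1 case a receptor subunit and its ligand, were set against each other across the 7 arrays, in 8 pairs. Col4a1 and Col4a2 had the closest relation, with Pearson's r = 0.98 (exact permutation p = 0.000794, Benjamini-Hochberg adjusted 0.00635) and Spearman's rho = 0.955 (exact permutation p = 0.00317, adjusted 0.0254). Without knockdown replicate 1 and control replicate 4, the arrays farthest from the median of Col4a1, r was 0.777 over 5 arrays. Lamb1 and Lamc1 had r = 0.881 (exact permutation p = 0.00635, adjusted 0.0254) and rho = 0.893 (exact permutation p = 0.0123, adjusted 0.0492), and r = 0.706 without the same arrays. The other 6 pairs did not pass after adjustment. The laminin receptor subunits Itga6 and Itgb1 had r = 0.815 (exact permutation p = 0.0327, adjusted 0.0857) and the fibronectin receptor subunit Itga5 with Fn1 had r = 0.781 (exact permutation p = 0.0429, adjusted 0.0857). For Col1a1 with Col1a2, Col6a1 with Col6a2, Itgav with Itgb8 and Col4a5 with Col4a6 the values of r were 0.557, 0.422, 0.028 and -0.634. Taken as deviations from the group means, Col4a1 and Col4a2 had r = 0.981. Genes that are not partners were not set against each other, so whether a close relation is particular to partners was not tested.

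Promoter windows are shown for the head-to-head gene pair Col4a1 and Col4a2, and for Lamb1 and Nid1. All of these genes had knockdown replicate 1 and control replicate 4 on top, as did Nid2, Hspg2 and Lama4 on other chromosomes. The windows run from 250 bases before to 50 bases after the start of transcription and come from RefSeq on build GRCm38.p6, where 60 of the 84 members matched. Capitals mark every match, on either strand, to GGGCGG (the GC box bound by Sp1) or CCAAT (bound by NF-Y). The Col4a1 window lies at chr8:11312777-11313076 on the minus strand and the Col4a2 window at chr8:11312555-11312854 on the plus strand. Their annotated starts are 21 bases apart, and the windows share 78 bases. The Lamb1 window lies at chr12:31265043-31265342 and the Nid1 window at chr13:13437352-13437651, both on the plus strand.
Col4a1: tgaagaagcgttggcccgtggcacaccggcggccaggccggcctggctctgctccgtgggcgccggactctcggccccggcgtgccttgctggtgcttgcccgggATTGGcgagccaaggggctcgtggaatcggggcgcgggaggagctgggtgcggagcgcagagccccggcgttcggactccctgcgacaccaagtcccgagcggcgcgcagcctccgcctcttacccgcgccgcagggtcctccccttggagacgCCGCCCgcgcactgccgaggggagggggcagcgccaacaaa
Col4a2: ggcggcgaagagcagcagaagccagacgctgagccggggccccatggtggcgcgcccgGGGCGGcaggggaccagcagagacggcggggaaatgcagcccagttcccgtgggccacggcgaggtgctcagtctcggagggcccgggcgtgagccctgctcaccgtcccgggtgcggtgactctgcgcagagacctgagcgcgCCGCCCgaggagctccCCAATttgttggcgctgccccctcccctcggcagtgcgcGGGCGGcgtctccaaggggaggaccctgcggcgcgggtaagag
Lamb1: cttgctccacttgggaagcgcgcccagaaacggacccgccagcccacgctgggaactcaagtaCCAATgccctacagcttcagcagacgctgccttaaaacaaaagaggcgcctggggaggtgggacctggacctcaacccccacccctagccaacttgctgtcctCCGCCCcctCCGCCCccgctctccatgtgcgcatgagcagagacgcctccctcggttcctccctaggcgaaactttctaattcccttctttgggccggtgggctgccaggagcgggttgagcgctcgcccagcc
Nid1: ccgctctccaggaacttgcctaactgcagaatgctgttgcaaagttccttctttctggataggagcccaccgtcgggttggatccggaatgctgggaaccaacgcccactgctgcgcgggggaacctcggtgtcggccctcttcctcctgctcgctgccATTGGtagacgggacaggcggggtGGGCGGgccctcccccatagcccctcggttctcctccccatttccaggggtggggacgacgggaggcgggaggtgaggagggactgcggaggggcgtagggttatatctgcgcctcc

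All 4 windows hold at least 1 GGGCGG and 1 CCAAT, and Col4a2 has 3 GC boxes. The GC box of Col4a1 lies in the bases shared with Col4a2 and is 1 of those 3. The GC box was present in 37 of 66 member windows (56.1%) and in 35.7% of all 32851 windows of the same length, and CCAAT in 18 of 66 (27.3%) and 37.4%. TATAAA was in 5 of 66 member windows (7.58%) beside 13.6% of all, TGACGTCA, the cyclic AMP response element, in 1 of 66 (1.52%) beside 1.79%, and the ETS site CCGGAAGT in 0 of 66 beside 3.89%. Some members have several windows, and a match only describes the letters in it.

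The fibrillar collagens, the rope-like collagens of connective tissue, hardly varied. All 11 spanned between 0.116 and 0.388 log2 units over the 7 arrays, 7 had higher means in knockdown and 4 lower, and their median difference was 0.062. Col1a1, the main chain of type I collagen, had 5.04, 5.14 and 5.19 in knockdown, against 5.08, 4.96, 4.89 and 4.87 in control, a difference of 0.17 (SE 0.10). Col1a2, its partner, differed by 0.084 (SE 0.10), by -0.0216 when array medians were equalised and by -0.0242 with another quantile normalization. Col2a1, a cartilage collagen, differed by 0.11 (SE 0.11), and Col27a1 and Col11a2 by -0.03 (SE 0.12) and -0.04 (SE 0.13). Col3a1, Col5a1, Col5a2, Col5a3, Col11a1 and Col24a1 differed by -0.04 to 0.11. Control replicate 4 was not above all other control arrays for any of the 11 genes, and shared the highest control value for Col1a2. The mean of 11 meningeal fibroblast markers was 4.49, 4.87 and 4.03 in knockdown, against 4.15, 4.19, 4.29 and 5.12 in control, with control replicate 4 as the highest array.

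The other 25 collagens, among them the fibril-associated, beaded-filament and transmembrane types, had 12 higher and 13 lower means, a median difference of -0.016 and none at an unadjusted p under 0.05. Their differences ran from -0.20 for Col6a5 to 0.22 for Col20a1. A second, dimmer probe set of Col6a5 differed by 0.03 (SE 0.13). Col8a1, a short-chain collagen of vessel walls and other tissues, was the only one to span over 1 log2 unit, with 3.904, 3.97 and 3.66 in knockdown, against 3.82, 3.84, 3.73 and 4.76 in control. Control replicate 4 alone stood out for this gene. Col9a2 and Col9a3, chains of the fibril-associated type IX collagen, differed by -0.14 (SE 0.13) and -0.08 (SE 0.25), and Col9a3 by 0.12 without control replicate 4. Col26a1 differed by -0.07 (SE 0.12). Col6a1 and Col6a2, which form type VI microfibrils, differed by 0.13 (SE 0.12) and 0.17 (SE 0.17).

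**Figure D3:**
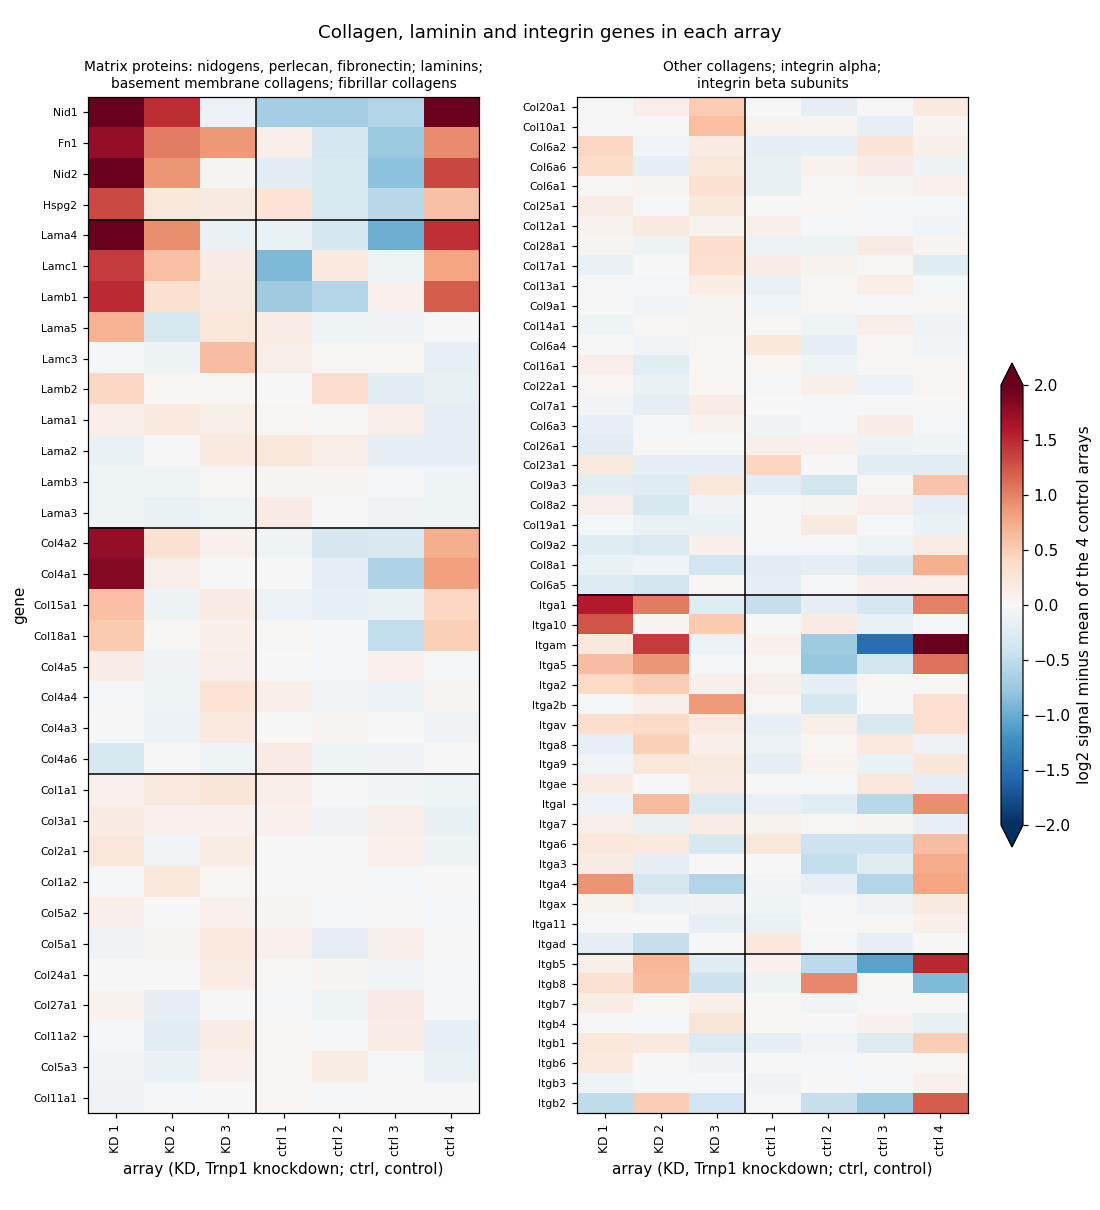
Log2 signal of each of the 84 genes (rows) in each array (columns, knockdown left of control) minus the mean of the 4 control arrays, with colours limited to 2 log2 units either way and black lines between the role groups. Red cells gather in knockdown replicates 1 and 2 and control replicate 4 for the nidogens, Fn1, Hspg2, Lama4, Lamb1, Lamc1, Col4a1 and Col4a2, and the fibrillar collagens are pale throughout.

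The 18 integrin alpha subunits had 13 higher and 5 lower means in knockdown, with a median difference of 0.11. Of the collagen-binding subunits, Itga2 (Entrez 16398) was the second member with an unadjusted p under 0.05. It had log2 signals of 3.98, 4.08 and 3.68 in knockdown, against 3.71, 3.41, 3.61 and 3.62 in control, and knockdown replicate 3 lay below control replicate 1. The difference was 0.33 (SE 0.13, limma unadjusted p = 0.0444, adjusted p = 0.825). Its signals lay below the array medians of 4.40 to 4.61. With equal array medians, quantile and cyclic loess normalization the unadjusted limma p was 0.199, 0.119 and 0.099. With 1 array left out the difference ran from 0.24 to 0.44, and that p was under 0.05 only without knockdown replicate 3 or control replicate 1. Itga1, whose protein binds type IV collagen, had 5.44, 4.90 and 3.6 in knockdown, against 3.39, 3.66, 3.50 and 4.86 in control, a difference of 0.80 (SE 0.51). It was 0.40 without knockdown replicate 1 and 1.13 without control replicate 4. Without knockdown replicate 3 it was 1.32, and the groups did not overlap, as for 12.1% of all genes. That array was the only knockdown array below any control, so the separation had to follow. Itga10 had 5.39, 4.19 and 4.65 in knockdown, against 4.12, 4.30, 4.00 and 4.11 in control, a difference of 0.61 (SE 0.26). Leaving out knockdown replicate 1 gave 0.29, and leaving out knockdown replicate 2 gave 0.89 (limma unadjusted p = 0.0063, adjusted p = 0.241). Without knockdown replicate 2, the only knockdown array below any control, the groups could not overlap, and 20.8% of all genes had no overlap there. For Itga10 control replicate 4 lay among the other controls, unlike for Itga1. Itga11 differed by -0.05 (SE 0.11).

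The 4 subunits that recognise the RGD motif of fibronectin and other proteins all had higher means in knockdown, with none at an unadjusted p under 0.05. Itgav (Entrez 16410), the vitronectin receptor subunit, had 6.86, 6.89 and 6.70 in knockdown, against 6.35, 6.63, 6.21 and 6.85 in control. Only control replicate 4 overlapped the knockdown arrays, and the difference of 0.31 (SE 0.17) was 0.42 without it. Itga5, which pairs with Itgb1 in the classical fibronectin receptor, had 5.89, 6.15 and 5.24 in knockdown, against 5.30, 4.51, 4.91 and 6.36 in control. The difference was 0.49 (SE 0.44), 0.85 without control replicate 4 and 0.24 without control replicate 2. Itga8 and the platelet subunit Itga2b differed by 0.14 (SE 0.17) and 0.32 (SE 0.25).

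Subunits of laminin receptors, which radial glia are known to carry, did not separate the groups. Itga6 (Entrez 16403), which pairs with Itgb1 or Itgb4, had 7.12, 7.10 and 6.59 in knockdown, against 7.13, 6.49, 6.49 and 7.52 in control. Its difference was 0.03 (SE 0.29, 95% interval -0.65 to 0.71), and it was -0.0772 with the array medians set equal. Itga3 differed by -0.003 (SE 0.28) and Itga7 by 0.04 (SE 0.12). Itgb1 (Entrez 16412), the beta subunit shared by most matrix receptors, had 8.73, 8.71 and 8.24 in knockdown, against 8.35, 8.46, 8.26 and 9.01 in control. Knockdown replicate 3 was the lowest array and control replicate 4 the highest, and the difference was 0.04 (SE 0.22, 95% interval -0.47 to 0.55), or -0.0679 with equal array medians. Control replicate 4 was also the highest array for Itga6 and Itga3, and the lowest for Itga7. It had the lowest mean of the radial glia markers and the highest endothelial mean of the controls. Which cells gave these signals was not tested.

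The leukocyte integrins Itgam, Itgb2 and Itgal had another order of arrays, and Itgb2 and Itgal were picked after their values were seen. Itgam (Entrez 16409), the alpha M subunit of microglia and other myeloid cells, had 6.16, 7.34 and 5.83 in knockdown, against 6.03, 5.22, 4.43 and 8.09 in control, a range of 3.66 log2 units within the controls. The difference was 0.50 (SE 0.83). Its partner Itgb2 had 4.49, 5.49 and 4.61 in knockdown, against 4.98, 4.54, 4.27 and 6.20 in control, and differed by -0.14 (SE 0.48). Itgal, the alpha L subunit of lymphocytes and other leukocytes, had 4.43, 5.18 and 4.27 in knockdown, against 4.40, 4.33, 3.99 and 5.48 in control, and differed by 0.077 (SE 0.38). In all of these genes control replicate 4 was the highest array and knockdown replicate 2 came next. The mean of the microglia and macrophage markers had the same arrays on top. Csf1r, the receptor for colony stimulating factor 1, had 7.21, 8.26 and 7.11 in knockdown, against 8.32, 5.79, 5.85 and 9.21 in control. For this gene control replicate 1 came second. Mrc1 and Fcgr1, the microglia and macrophage markers of smallest p, differed by 1.07 (SE 0.75) and 0.56 (SE 0.79). The part of these cells in the leukocyte integrin values was not tested. Itga4, shared by leukocytes and other cells, had 6.78, 5.54 and 5.30 in knockdown, against 5.84, 5.72, 5.30 and 6.68 in control. At the top this was the order of the endothelial mean, and the difference of Itga4 was -0.01 (SE 0.43). Itga9, Itgad, Itgae and Itgax differed by -0.21 to 0.12. The lowest was Itgad, and a second, dimmer probe set of Itgad differed by 0.06 (SE 0.11). The leukocyte subunits Itgad, Itgae and Itgax did not have the order of Itgam, since knockdown replicate 2 was the lowest array for Itgad and Itgax, and control replicate 4 for Itgae.

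Of the 8 integrin beta subunits 6 had higher means in knockdown and 2 lower, and none had an unadjusted p under 0.05. Itgb5, a partner of Itgav, had 5.43, 6.00 and 5.10 in knockdown, against 5.42, 4.81, 4.26 and 6.85 in control. The difference of 0.18 (SE 0.58) lay well inside the control SD of 1.11. Itgb8, another partner of Itgav that takes part in activating transforming growth factor beta in the brain, had 6.84, 7.17 and 6.11 in knockdown, against 6.43, 7.5, 6.57 and 5.66 in control. It was the only member spanning over 1 log2 unit that had its highest value in control replicate 2, and control replicate 4 was its lowest array. The mean of 10 radial glia markers was 8.48, 8.43 and 8.10 in knockdown, against 8.51, 8.71, 8.45 and 8.0 in control, also highest in control replicate 2 and lowest in control replicate 4. Its part in the values of Itgb8 was not tested. The difference of Itgb8 was 0.17 (SE 0.44), and -0.12 without control replicate 4. Itgb3, Itgb4, Itgb6 and Itgb7 differed by -0.04 to 0.084 and spanned at most 0.38 log2 units.

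The share of members that varied widely between arrays was close to that of all genes. In all, 24 members (28.6%) spanned more than 1 log2 unit over the 7 arrays, beside 28.8% of all genes, and 60 did not. Of the 24, 14 had their highest value in knockdown replicate 1 and 8 in control replicate 4, and in 21 control replicate 4 was the highest control array. Over all 84 members control replicate 4 was the highest control for 39.3%, beside 24.2% of all genes, and knockdown replicate 1 was the highest array for 29.8%, beside 17.0% of all genes. In 13 of the 24 the controls alone spanned more than the knockdown arrays.

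**Figure D4:**
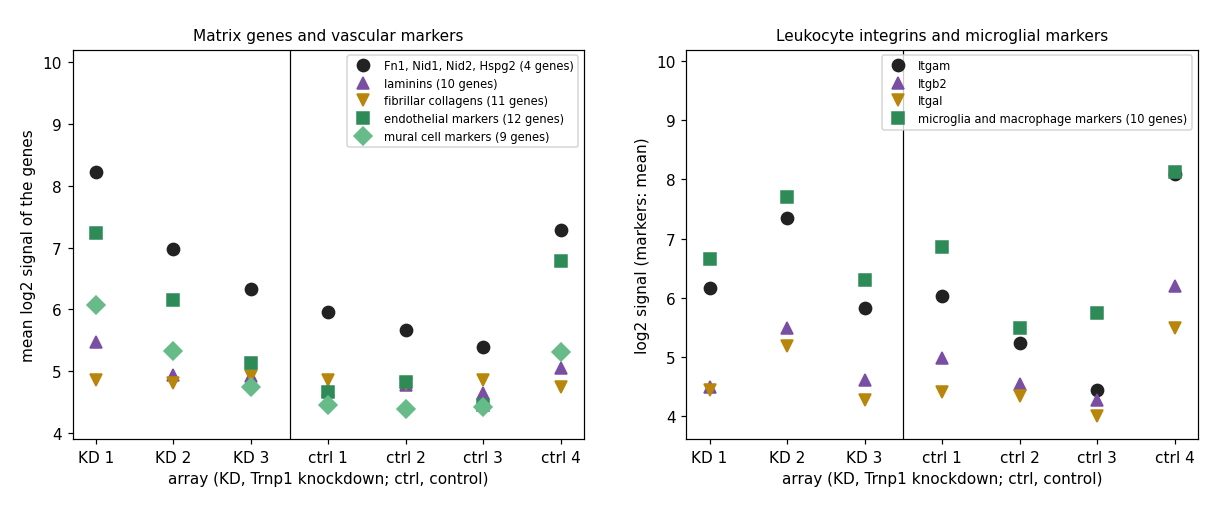
Left, the mean log2 signal (vertical axis) of fibronectin, nidogens and perlecan, of the laminins and of the fibrillar collagens in each array, beside the means of the endothelial and mural cell markers. Right, the log2 signals of Itgam, Itgb2 and Itgal beside the mean of the microglia and macrophage markers. The linker genes and endothelial markers are highest in knockdown replicate 1 and control replicate 4. The mural markers are highest in knockdown replicate 1, with knockdown replicate 2 and control replicate 4 close together below it. The leukocyte integrins are highest in control replicate 4 and knockdown replicate 2.

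No member passed the adjusted p with any 1 array left out, whereas the counts at an unadjusted p changed. Without control replicate 4, 8 of 84 members (9.52%) were higher at an unadjusted p under 0.05, beside 3.00% of all genes, namely Fn1, Nid1, Nid2, Lamb1, Lamc1, Itga1, Itga5 and Itgav. All knockdown arrays then lay above all controls for 7 members (8.33%), beside 5.39% of all genes. The smallest adjusted p of a member by limma was 0.741. Without knockdown replicate 1, 0 of 84 were higher at that p, beside 1.97% of all genes, and 2 members lay wholly above the controls, beside 5.11%. Without knockdown replicate 2, 3 members were higher at that p (3.57%, beside 4.42% of all genes), and the smallest adjusted p was that of Itga10, the lowest with any 1 array left out. Without both control replicate 4 and knockdown replicate 1, 4 members were higher at an unadjusted p under 0.05 (4.76%, beside 2.71% of all genes), namely Fn1, Nid1, Nid2 and Col4a2, with differences of 1.26, 1.34, 0.92 and 0.43. All knockdown arrays then lay above all controls for 12 members (14.3%, beside 9.20% of all genes), and the smallest adjusted p was 0.875. In that comparison the endothelial means of the arrays left were 6.15 and 5.13 in knockdown, against 4.66, 4.82 and 4.46 in control.

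Genes that make, modify or respond to this matrix were taken from 4 lists, and none of them passed over all genes. Of 23 measured collagen-making enzymes and chaperones, 14 had higher means in knockdown and 9 lower, with a median difference of 0.20. In this list 3 of the 23 were higher at an unadjusted p under 0.05, beside 2.2% of all genes, and 0 lower, beside 3.61%. They were Plod2, a lysyl hydroxylase of collagen telopeptides (0.53, SE 0.19), P3h3, a prolyl 3-hydroxylase family member (0.40, SE 0.17), and the cross-linking enzyme Lox (0.26, SE 0.11). Plod2 had log2 signals of 6.79, 6.19 and 6.91 in knockdown, against 6.19, 6.05, 6.23 and 5.94 in control, so knockdown replicate 2 lay among the controls and control replicate 4 was the lowest array. Of 21 integrin adaptors and kinases 13 were higher and 8 lower, with 1 higher at an unadjusted p under 0.05, beside 2.2% of all genes. This was Vcl, which encodes the actin linker vinculin, with 7.09, 7.05 and 6.34 in knockdown, against 5.80, 5.97, 6.57 and 6.26 in control (0.68, SE 0.25). Bcar1 and Lims1, adaptors at integrin adhesions, differed by -0.27 (SE 0.14) and 0.26 (SE 0.16).

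Of 15 other basement membrane proteins and laminin receptors 8 were higher and 7 lower, with 0 at an unadjusted p under 0.05. Dag1, which encodes the laminin receptor dystroglycan, differed by -0.23 (SE 0.12), the proteoglycan Agrn by 0.33 (SE 0.18) and the laminin-related netrin Ntn4 by -0.23 (SE 0.14). Of 16 matrix proteases and inhibitors 9 were higher and 7 lower, again with 0 at that p. Mmp17, a membrane-anchored metalloproteinase, differed by -0.48 (SE 0.21), the inhibitor Timp1 by 0.30 (SE 0.15) and the gelatinase Mmp9 by 0.51 (SE 0.33). Median differences of these last 3 lists were 0.036, 0.068 and 0.041.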

How the data were processed

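RNA was extracted with RNeasy columns and amplified with the Ovation PicoSL WTA kit, per the labels' protocols, and hybridised to 7 Affymetrix arrays, 3 knockdown and 4 control. The deposited values are log2 signals, per the submitters' processing notes from RMA in Expression Console 1.2. Scanner files were not used here. Of 35556 probe sets, 21789 have 1 gene symbol, 1621 several and 12146 none in the platform annotation, and 21698 were matched to RefSeq. Each of 19938 genes was represented by its brightest probe set, judged by the mean of the 7 arrays. Of the members 3 had several probe sets, namely Col6a5, Col6a6 and Itgad. Groups were compared over all genes with limma 3.58.1 in R 4.3.3 (lmFit and eBayes) and Benjamini-Hochberg adjustment, single values and correlations with exact two-sided permutation tests. The script was tested on simulated data.

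The labels call the samples biological replicates without naming animals, so p-values measure the spread between these samples, which may be partly technical. The labels name no batch. The number of arrays limits the precision. Members and lists were chosen with earlier results of these data known. Genes were named if their unadjusted p was under 0.05 or their groups did not overlap, or if they were linker proteins, among the 3 brightest of a role group, in a subunit pair, or among the up to 3 smallest p of a pathway list and up to 2 of a marker list. Lama4, Itga1, Itga4, Itga10, Itgb2 and Itgal were chosen after their values were seen, and the remaining members are given to account for all. The markers Cdh5 and Csf1r were named outside this rule. Alternatives were an intensity trend, array weights, other scalings, no dim genes, the mean over probe sets, a replicate block and leaving out arrays.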

Additional observations from a re-analysis of the deposited data

Results flagged for a closer look

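Among the 4 control arrays, 7 members had 1 array far from the others by Dixon's criterion at the 95% level. For normally distributed values, chance passes it in about 1 of 20 groups. The share of all genes that pass was not counted, so whether 7 of 84 members is unusual was not tested. The value given is the gap to the nearest array as a share of the whole range. Control replicate 4 was the highest for Nid1 (0.958), Col15a1 (0.915) and Col8a1 (0.892). Control replicate 2 was the lowest for Col7a1 (1.0) and Col16a1 (0.931) and the highest for Col25a1 (0.836), and control replicate 3 was the lowest for Col10a1 (0.939). The controls of these genes spanned only 0.057, 0.13, 0.061 and 0.231 log2 units, and for Col7a1 the other controls were equal. For Nid1, Col15a1 and Col8a1 they spanned 2.66, 0.59 and 1.02. For the related genes named, control replicate 4 was the highest for Bcar1 (0.953) and the lowest for Ntn4 (0.846), and control replicate 1 was the lowest for Mmp17 (0.861). Control replicate 4 was also the highest control for the mean level of the endothelial (0.843), mural (0.921), meningeal fibroblast (0.851) and erythroid (0.894) markers and of the matrix proteases and inhibitors (0.845). The erythroid mean over 5 markers was 7.09, 8.05 and 7.84 in knockdown, against 6.76, 6.77, 6.64 and 7.83 in control.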

How the results depend on the processing

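Under all 16 alternatives no member passed the adjusted p, and the difference of Trnp1 kept its direction; 49 of 64 named genes kept theirs. The 2 members higher at an unadjusted p under 0.05 became 5 with array weights (5.95%, beside 2.58% of all genes). They became 1 each with equal array medians, a further quantile or cyclic loess normalization (1.19%, beside 0.918%, 1.84% and 2.42%) or without the dimmest 25% of genes (1.33%, beside 2.13%). Without control replicate 4 and knockdown replicate 1, an alternative chosen after seeing the data, there were 4 (4.76%, beside 2.71%). With 1 array left out there were 0 to 8 (0% to 9.52%, beside 1.51% to 4.42% of all genes). The 0 members lower at that p became 2 with equal array medians and 1 with quantile normalization, beside 1507 and 802 of all 19938 genes. Members whose groups did not overlap, 0 in the comparison as reported, were 7, 6 and 2 with equal medians, quantile and cyclic loess normalization, 15 without both arrays, and 1 to 9 with 1 array left out. These shares were below those of all genes, at 8.33%, 7.14% and 2.38% beside 10.8%, 7.27% and 6.42% for the scalings and 17.9% beside 19.1% without both arrays. With 1 array left out they were 1.19% to 10.7%, beside 8.35% to 20.8% of all genes, and below the share of all genes each time. Equal medians moved the median of all genes by -0.106 and that of the members to -0.035. The cause of these shifts was not tested.

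The labels state no pairing of the samples by replicate number. Correlations of same-numbered arrays' deviations from their group means were 0.0278, -0.0507 and 0.0716 over all genes. Values near 0 cannot exclude a pairing by day or litter. With the replicate block, control replicate 4 has no partner and adds nothing to a difference. The differences were therefore those without control replicate 4, and the block is no separate check of them. It adds a pairing that the labels do not state. With it 11 members (13.1%, beside 3.23% of all genes) were higher at an unadjusted p under 0.05. The differences were -0.12 for Itgb8, 0.12 for Col9a3, 0.26 for Itga4 and 0.27 for Itgb2.

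Other directions turned as follows. With equal medians the difference was -0.0772 for Itga6, -0.0679 for Itgb1, -0.022 for Col1a2, -0.041 for Col4a5 and -0.029 for Itgal, and with quantile normalization -0.024 for Col1a2, -0.037 for Col4a5 and -0.012 for Itgal. Array weights gave 0.26 for Itga4 and 0.070 for Itgb2, and cyclic loess 0.004 for Itga4. Without both arrays the differences were -0.19 for Itgb8, -0.012 for Lamb2, 0.18 for Col9a3 and 0.45 for Itgb2, while Col27a1 (-0.098), Itgam (1.36) and Itgb5 (0.72) kept their direction. With 1 array left out at a time the difference ran from -0.084 to 0.043 for Col27a1, -0.13 to 0.056 for Col11a2, -0.11 to 0.23 for Itga6, -0.0037 to 1.22 for Itgam, -0.048 to 0.20 for Itgb1, -0.12 to 0.49 for Itgb8, -0.18 to 0.68 for Itgb5, -0.23 to 0.12 for Col9a3, -0.12 to 0.0067 for Col26a1, -0.46 to 0.28 for Itga4, -0.45 to 0.27 for Itgb2 and -0.20 to 0.39 for Itgal.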
